A study of Mus musculus with 3 samples.

Results

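Embryoid bodies that carried the RQ variant of human BRCA1 were compared directly with embryoid bodies that carried the MI variant, gene by gene, as the RQ signal minus the MI signal on the log2 scale. The comparison took in all 45037 probe sets of the array other than its 64 controls, and 34945 of them named exactly 1 gene. These probe sets read 18193 genes, which are all the genes named on the arrays, and 2 of the 3 arrays of the study. A gene with several probe sets, as 9010 genes had, was read at its brightest probe set, by the mean of the 3 arrays. Each array held total RNA of day 7 embryoid bodies grown from 129S7/SvEv Brd-Hprt b-m2 embryonic stem cells, with 1 array per genotype (WT, MI and RQ). All 3 genotypes carried human BRCA1, as the wild-type sequence in WT, with the substitution M1652I in MI and with a substitution of another residue in RQ. The study's design gives the RQ substitution as R1699Q and the label of the RQ array gives it as R1669Q, so the bodies are called RQ here. Before the bodies were formed in suspension in Petri dishes, the trypsinized stem cells had been held on gelatin-coated plates to take out the feeder cells. How the human gene was brought into the cells, whether the mouse gene was still present, and how many clones stood behind each genotype are points not given in the sources used here.

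BRCA1 is a tumour suppressor that works in the repair of broken DNA by homologous recombination, in cell cycle checkpoints and in the control of transcription, and both substituted residues lie in its C-terminal BRCT repeats, which bind phosphorylated partner proteins. Embryoid bodies are floating clusters of embryonic stem cells that leave the pluripotent state and begin to form the germ layers, an outer layer of primitive endoderm and its basement membrane. The naive pluripotent state is held by a network of transcription factors, which gives way to a formative state and then to differentiation, while mesenchymal cells are recognised by intermediate filaments, matrix proteoglycans and calcium-binding proteins. With 1 array for each genotype the comparison has no replicate error and no test, so each value describes these arrays, and genotype and preparation cannot be told apart.

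The difference between the arrays depended on signal level. Among probe sets with a mean level of log2 6 to 6.5 the median of RQ minus MI was -0.10, while among the 1036 with a mean level of 9 to 10 it was 0.38. A smooth trend of the difference on the mean of both arrays (lowess) was therefore subtracted, and differences are given on this level-corrected scale unless they are called uncorrected. The correction brought the median to 0.06 at levels of 9 to 10 but left it at 0.11 among the 2207 probe sets with levels of 8 to 9. Among the 441 with levels of 11 to 16 it was -0.08. These remainders should be read beside the medians of gene lists below. Over all genes the median corrected difference was -0.01 and the standard deviation across genes was 0.30. Of the 12730 genes with RQ or MI at or above a level filter of log2 6.31, which is the median of all probe sets, 87.6% lay within 0.5 log2 units of 0. The 18 spiked-in control probe sets differed by a median of 0.10 before correction, from -0.06 to 0.37.

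RQ exceeded MI by 2-fold or more for 147 genes, which is 0.808% of the 18193 genes, and lay 2-fold or more below MI for 79 genes, which is 0.434%. The higher genes thus made up 65.0% of the 226 genes past 2-fold. Without the level correction the counts were 253 higher (1.39%) and 64 lower (0.352%), and 79.8% of those were higher in RQ. That share was 87.2% with the arrays centred on their medians and 52.8% with both arrays quantile-normalized again, so the balance of higher and lower genes depended on the scaling. On both scales 134 genes were past 2-fold on the higher side and 57 on the lower side. The higher differences were more numerous and the lower ones larger. Among the higher genes 4 were past 4-fold and 1 past 8-fold, and among the lower genes 17 were past 4-fold and 11 past 8-fold. The median corrected difference was 1.20 over the higher genes and -1.31 over the lower genes. Another 43 probe sets that name no gene or several genes were 2-fold higher and 16 were 2-fold lower, of 10092 such probe sets.

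**Figure D1:**
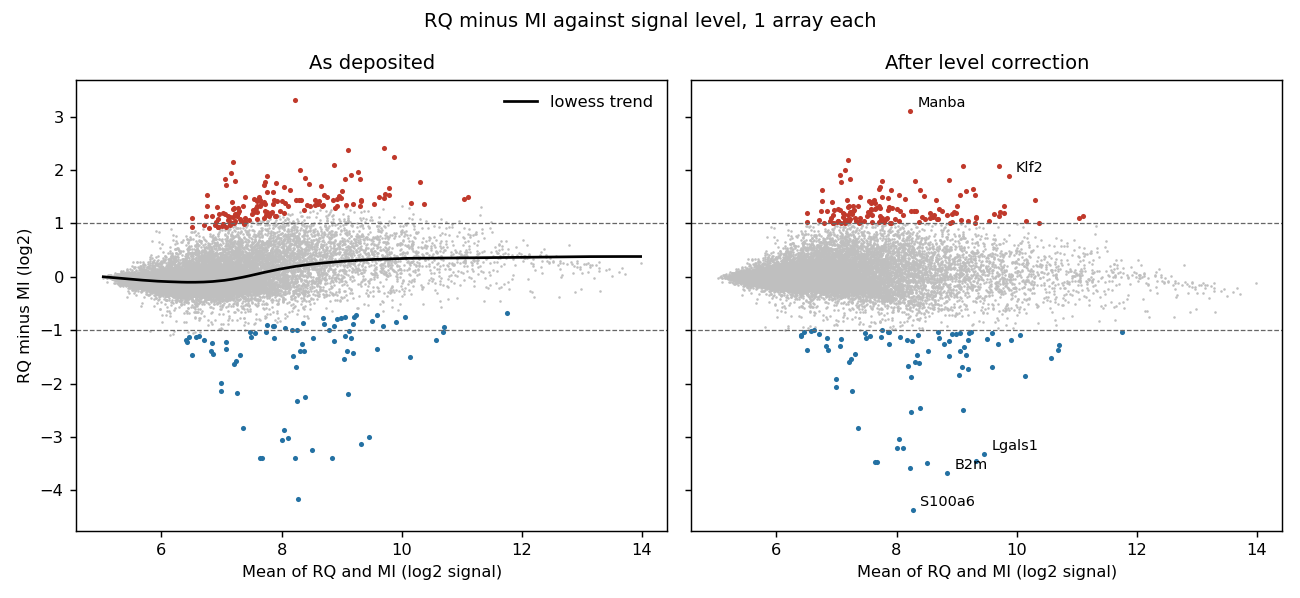
Each point is a gene, with the mean of the RQ and MI log2 signals on the x axis and RQ minus MI in log2 units on the y axis, as deposited on the left with the lowess trend as a black line, and after the trend was subtracted on the right. The 147 genes at least 2-fold higher in RQ are red, the 79 at least 2-fold lower are blue, and dashed lines mark 2-fold.

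The genes farthest below MI in RQ included calcium-binding, membrane-binding and matrix proteins known from mesenchymal cells. S100a6, which encodes a small calcium-binding protein of the S100 family, had a log2 signal of 6.56 on the WT array, 10.36 on MI and 6.19 on RQ. It stood high on the MI array alone, and RQ was 20.7-fold below MI. Vim, the intermediate filament of mesenchymal cells, read 8.05 on WT, 10.89 on MI and 7.75 on RQ, a corrected difference of -3.45, and its other probe sets gave -3.20 and -3.95. Cd44, the receptor for hyaluronan, read 6.10, 9.37 and 5.98 (-3.47). S100a4, an S100 protein that marks fibroblasts, read 6.02, 9.33 and 5.93 (-3.46). For these genes WT lay close to RQ, and MI lay apart from both.

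The same arrangement, with MI high and the other arrays near each other, was seen for Dcn, which encodes the matrix proteoglycan decorin. Dcn read 6.57 on WT, 9.54 on MI and 6.48 on RQ, a corrected difference of -3.21 or 9.28-fold. Bgn, the related proteoglycan biglycan, read 7.14, 9.63 and 6.60 (-3.20), although its other probe sets gave -1.07 and -0.68. Vcam1, an adhesion molecule that binds leukocyte integrins, read 5.96, 8.77 and 5.94 (-2.83), with other probe sets at -0.96 and -0.29. Cpe, a carboxypeptidase that processes peptide hormones, read 6.90, 9.48 and 6.61 (-3.04), with -0.43 at its other probe set. Anxa1, a phospholipid-binding annexin, read 6.98, 10.12 and 6.87 (-3.49), whereas its other probe set above the filter differed by -0.01. Probe sets of 1 gene thus gave differences of one direction but of unequal size for Bgn, Vcam1 and Cpe.

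For a further group of leading genes the WT array was also high, so that RQ was the array that stood low. Lgals1, which encodes galectin-1, a secreted lectin, read 9.96 on WT, 10.96 on MI and 7.96 on RQ, a corrected difference of -3.32, with -2.87 at its other probe set. B2m, the light chain of the MHC class I complex, read 9.70, 10.54 and 7.15 (-3.67, and -3.13 at the other probe set), and it was 12.7-fold below MI. Rhox5, an X-linked homeobox gene of the reproductive system and the early embryo, read 9.54, 10.20 and 7.997 (-2.50). For each of them WT lay nearer to MI than to RQ.

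The remaining leading genes on this side were Dlk1, Cxcl1 and Ccnd1. Dlk1, a Delta-like protein from an imprinted locus, read 6.79, 9.93 and 6.54 (-3.59) at a probe set that may read more than 1 transcript (suffix _s_at), and the second one lay below the filter with a difference of 0.02. The chemokine gene Cxcl1 read 7.18, 9.41 and 7.08 (-2.53, with -1.85 and -4.64 at its other probe sets). Ccnd1, which encodes the G1 cyclin D1, read 6.83, 9.52 and 7.28 (-2.47), and its other probe sets gave -1.39 and -1.48. MI was the high array for each of these genes.

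**Figure D2:**
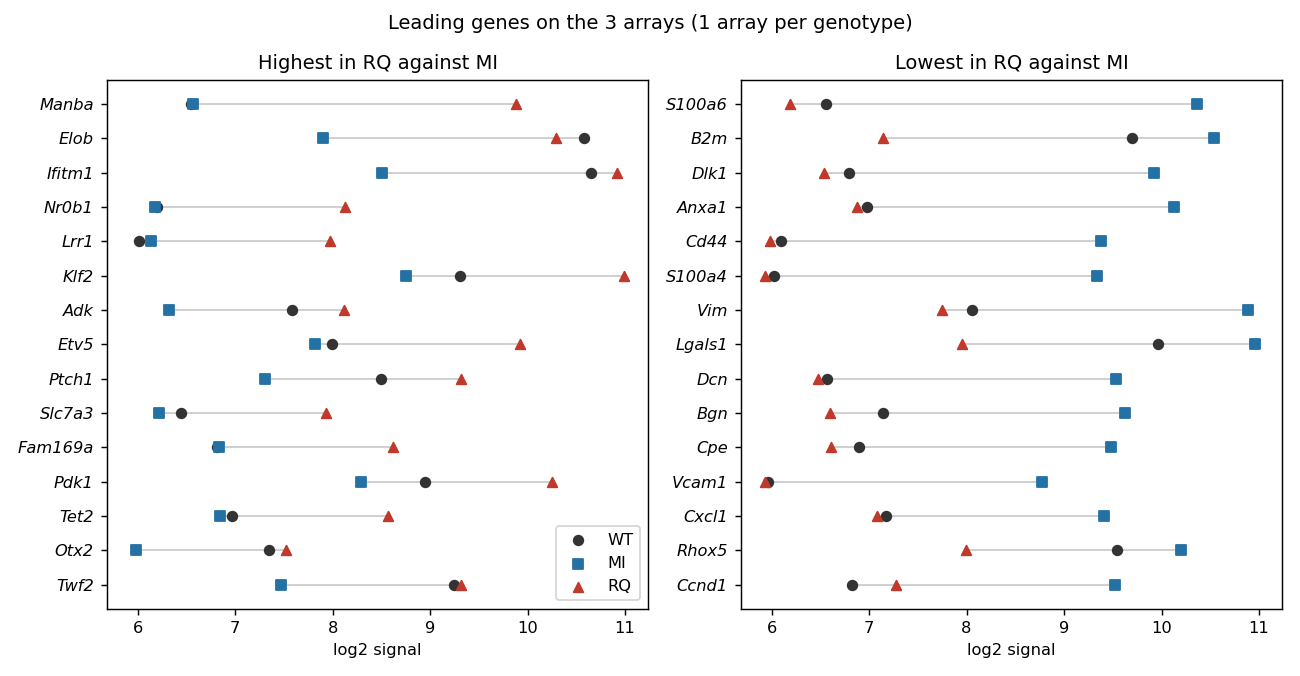
Log2 signal on the WT (black circle), MI (blue square) and RQ (red triangle) arrays, 1 array each, for the 15 genes highest in RQ against MI (left) and the 15 lowest (right) among genes with no other probe set past the filter in the opposite direction. S100a6 reads 10.36 in MI against 6.19 in RQ, and Manba 9.88 in RQ against 6.57 in MI.

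The list of S100 proteins, annexins and galectins, families of calcium-, membrane- and sugar-binding proteins, had the lowest median of the 39 lists described. The lists were chosen with earlier results of these data known, so the rank is a description only. S100a6, Anxa1, S100a4 and Lgals1 are also among the 15 lowest genes, so the list is not separate from them. Of the 18 genes of the list on the arrays, each above the filter, 6 lay 2-fold or more below MI in RQ. The 6 are 33.3% of the list, against 0.434% of all genes. None was 2-fold higher, and 16 lay below 0. The median was -0.55, against -0.01 over all genes, and the mean was -1.21. Beyond S100a6, Anxa1, S100a4 and Lgals1, the 6 were S100a10 (8.49 on WT, 9.08 on MI and 7.39 on RQ, -1.88) and Anxa2 (10.48, 10.16 and 9.23, -1.26), whose products form a complex at the plasma membrane. Without the level correction Anxa2 was at -0.93 and 5 of the 18 were past 2-fold. Anxa4 (0.21) and Anxa6 (0.05) lay above 0.

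Fibroblast and mesenchyme markers were split between a few genes with large differences and many with small ones. Of 24 genes on the arrays, 21 of them above the filter, 5 lay 2-fold or more below MI in RQ and none was 2-fold higher: S100a4, Vim, Dcn, Bgn and the type I collagen chain Col1a2 (6.39 on WT, 8.03 on MI and 6.39 on RQ, -1.60). The 5 lower genes are 20.8% of the list, against 0.434% of all genes. The median was -0.21 and the mean -0.76, and 21 of the 24 lay below 0. The linear signals of the list, with these 5 genes included, summed to 3960 for the WT array, 7571 for MI and 3639 for RQ. Each of the 5 read highest on MI, so the sums hold their differences again and do not describe the rest of the list. Some other fibroblast genes were near the filter on all 3 arrays and near 0, among them Col3a1 (6.27, 6.35 and 6.35, a difference of 0.10), Thy1 (6.24, 6.25 and 6.21, 0.05), Pdgfrb (6.41, 6.46 and 6.35, -0.00) and Postn (6.501, 6.57 and 6.46, -0.01). Others leaned below 0 without reaching 2-fold, among them Col6a2 (7.43, 7.90 and 7.52, -0.46), Col5a1 (-0.39), Col6a1 (-0.38) and Pdgfra (6.77, 7.15 and 6.74, -0.33). Col1a1, the partner chain of Col1a2, read 5.97, 6.43 and 5.71 (-0.64). Whether cells of another type, including feeder cells, took part in the MI signal was not tested, and in RNA of whole bodies more cells of a type and more RNA per cell cannot be told apart.

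Among mesenchymal surface and adhesion genes, 2 of 20 (18 above the filter), Cd44 and Vcam1, were 2-fold lower in RQ and none was higher, with a median of -0.18. Cd34 (5.61, 6.71 and 5.69) and the caveolin gene Cav2 (6.37, 7.07 and 6.04) both differed by -0.93 and were likewise highest in MI. In the list of TGF-beta response and matrix turnover, 3 of 21 genes (17 above the filter) were 2-fold lower, with a median of -0.16. They were the growth factor binding protein gene Igfbp4 (8.93 on WT, 9.80 on MI and 8.26 on RQ, -1.84) and the metalloproteinase inhibitors Timp2 (-1.16) and Timp1 (-1.10), while the TGF-beta antagonists Skil (0.75) and Smad7 (0.66) leaned the other way. Of YAP and SRF target genes 2 of 16 (15 above the filter) were 2-fold lower, the matrix-associated Ccn1 (7.71, 7.46 and 6.22, -1.15) and the receptor kinase Axl (-1.09), and the median was -0.08. The related Ccn2 differed by -0.57 and Ankrd1 by -0.43. The lower shares were 10% for surface genes, 14.3% for the TGF-beta list and 12.5% for YAP and SRF targets, against 0.434% of all genes. None of the 25 actin cytoskeleton and smooth muscle genes was past 2-fold (median -0.11), and Acta2, the smooth muscle actin, differed by -0.57.

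Genes of the interferon response and MHC class I presentation had a median of -0.18, with 3 of 25 (20 above the filter) 2-fold lower in RQ and 1 higher. The shares are 12% lower and 4% higher, against 0.434% and 0.808% of all genes. The lower ones were B2m, the antiviral membrane protein gene Ifitm3 (8.95 on WT, 10.26 on MI and 8.90 on RQ, -1.68) and Usp18, a protease that removes ISG15 (5.79, 7.03 and 5.81, -1.11). The higher one was Ifitm1, which belongs to the same family as Ifitm3 and is expressed in early embryonic cells. It read 10.65 on WT, 8.50 on MI and 10.92 on RQ, so MI was the low array and RQ was 4.22-fold higher. Ifitm2 leaned the same way as Ifitm1 (0.80). The B2m difference was not seen to that size in heavy chain genes of MHC class I, which were named after their values were seen: H2-K1 read 6.96 on WT, 7.04 on MI and 6.88 on RQ (-0.09) and H2-D1 read 6.86, 7.04 and 6.22 (-0.72). The peptide transporter genes Tap1 (-0.04) and Tap2 (-0.03) lay near 0.

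Of NF-kB and chemokine genes, 2 of 20 (12 above the filter) were 2-fold lower in RQ and none was higher, with a median of -0.20. The lower share is 10%, against 0.434% of all genes. Besides Cxcl1 the lower gene was Nfkbia, the inhibitor that NF-kB induces as its own brake, at 10.54 on WT, 11.18 on MI and 10.24 on RQ (-1.29). Its uncorrected difference was -0.93, short of 2-fold, which leaves 1 of 20. The prostaglandin synthase gene Ptgs2 read 6.93, 7.59 and 6.96 (-0.61), and Cxcl10 differed by -0.48 and Ccl2 by -0.43. The suppressor of cytokine signalling Socs3, named after its values were seen, followed the same order, with 8.67 on WT, 9.89 on MI and 8.47 on RQ (-1.73).

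The promoters of genes past 2-fold were read for short sequence motifs. The motifs were chosen with the leading genes in view, several of which are known NF-kB targets or have a TATA box, so the counts describe these genes and support nothing further. Promoters were windows of 300 bases, from 250 before to 50 after the first start site listed for a gene, from RefSeq on the mouse assembly GRCm38.p6, and a match of the letters on either strand was counted. GGGA and TTCC with any 2 bases between them, letters bound by NF-kB, were present in 7 of the 65 genes lower in RQ that had a promoter in the table (10.8%), namely B2m, Cxcl1, Ifitm3, Nfkbia, Tm4sf1, Vmp1 and 2410006H16Rik. They were present in 1 of 117 genes higher in RQ (0.855%), in 1.38% of the 10229 genes above the filter and in 1.43% of all 27025 promoters. TATAAA was present in 17 of the 65 (26.2%) and in 5 of the 117 (4.27%), against 8.24% of genes above the filter and 14.2% of all promoters. Those 17 included S100a4, Vim, Anxa1, Anxa2, Igfbp4, Ccn1 and Meg3. TGANTCA, letters bound by AP-1, were present in 8 of the 65 (12.3%) and 1 of the 117 (0.855%), against 5.33% of genes above the filter and 7.93% of all promoters.

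Other letters were read in the same way. GAAA and GAAA with any 2 bases between, found in interferon response elements, was present in 3 of the 65 (4.62%) and 1 of the 117 (0.855%), against 2.73% of genes above the filter and 3.49% of all promoters. The octamer ATTTGCAT, bound by Pou5f1 and related factors, was present in 1 of the 65 (1.54%) and 4 of the 117 (3.42%), against 1.36% of genes above the filter and 1.75% of all promoters. TTCNNNGAA, bound by STAT factors, was present in 6 of the 65 (9.23%) and 12 of the 117 (10.3%), against 6.77% of genes above the filter and 8.47% of all promoters. For genes chosen without the level correction, 5 of 52 lower genes (9.62%) held the NF-kB letters, 12 of 52 (23.1%) held TATAAA and 8 of 52 (15.4%) held TGANTCA. A match is a description of these letters and does not show that a factor was bound.

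The promoters below are those of 5 genes far lower in RQ and of 1 that was higher. All but S100a6 were picked because they hold the NF-kB letters or TATAAA, and S100a6, the gene with the largest difference, holds neither. They are written 5′ to 3′ on the strand of the gene, and capitals mark the NF-kB letters or TATAAA, or their complement where the match is on the opposite strand. The Cxcl1 capitals hold overlapping matches on both strands, the B2m promoter has a match of each kind on the opposite strand, and S100a4, Vim and the higher gene Nr0b1 have TATAAA shortly before the start site.
B2m (chr2:122147437-122147736, plus strand): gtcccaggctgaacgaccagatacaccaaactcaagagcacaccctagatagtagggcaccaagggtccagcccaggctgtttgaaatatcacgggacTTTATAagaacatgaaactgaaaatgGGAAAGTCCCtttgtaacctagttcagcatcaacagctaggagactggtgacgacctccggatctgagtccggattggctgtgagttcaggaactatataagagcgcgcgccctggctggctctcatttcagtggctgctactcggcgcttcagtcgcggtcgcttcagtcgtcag
Cxcl1 (chr5:90890995-90891294, plus strand): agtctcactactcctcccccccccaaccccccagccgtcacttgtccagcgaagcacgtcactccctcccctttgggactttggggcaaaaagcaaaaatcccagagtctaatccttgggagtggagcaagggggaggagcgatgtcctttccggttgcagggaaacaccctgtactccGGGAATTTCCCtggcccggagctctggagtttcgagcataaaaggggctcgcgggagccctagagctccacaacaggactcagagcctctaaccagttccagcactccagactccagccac
S100a4 (chr3:90603520-90603819, plus strand): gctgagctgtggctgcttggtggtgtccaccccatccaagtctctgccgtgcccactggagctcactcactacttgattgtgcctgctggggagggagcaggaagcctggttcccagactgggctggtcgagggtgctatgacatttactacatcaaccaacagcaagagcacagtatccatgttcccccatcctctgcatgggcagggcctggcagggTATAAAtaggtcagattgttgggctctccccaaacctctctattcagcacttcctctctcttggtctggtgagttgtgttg
Vim (chr2:13574061-13574360, plus strand): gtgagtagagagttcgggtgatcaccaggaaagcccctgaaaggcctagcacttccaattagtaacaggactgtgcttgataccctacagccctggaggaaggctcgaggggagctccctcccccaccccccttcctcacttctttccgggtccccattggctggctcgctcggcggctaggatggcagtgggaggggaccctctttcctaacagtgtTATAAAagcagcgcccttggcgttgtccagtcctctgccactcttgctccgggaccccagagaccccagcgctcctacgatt
S100a6 (chr3:90612644-90612943, plus strand): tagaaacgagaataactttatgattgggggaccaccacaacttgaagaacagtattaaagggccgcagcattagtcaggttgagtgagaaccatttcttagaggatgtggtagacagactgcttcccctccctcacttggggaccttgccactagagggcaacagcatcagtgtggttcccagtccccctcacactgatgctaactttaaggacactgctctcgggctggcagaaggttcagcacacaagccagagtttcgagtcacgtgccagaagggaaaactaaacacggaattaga
Nr0b1 (chrX:86191525-86191824, plus strand): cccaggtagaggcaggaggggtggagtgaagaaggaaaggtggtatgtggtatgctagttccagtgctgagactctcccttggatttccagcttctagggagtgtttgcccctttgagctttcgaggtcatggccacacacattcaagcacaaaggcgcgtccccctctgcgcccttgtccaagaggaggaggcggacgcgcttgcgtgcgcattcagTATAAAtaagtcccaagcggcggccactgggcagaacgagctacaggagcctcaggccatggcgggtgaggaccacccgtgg

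Among genes of no list, named after their values were seen, several more read highest on the MI array. Hmga2, an architectural chromatin protein of embryonic and mesenchymal cells, read 6.59 on WT, 8.35 on MI and 6.18 on RQ (-2.15). The surface protein genes Tm4sf1 (6.02, 8.06 and 5.92, -2.06) and Emp1 (6.08, 7.98 and 5.99, -1.92) had the same order, and so did the interferon-induced Rtp4 (6.65, 8.04 and 6.57, -1.45) and Ifi27 (7.43, 8.93 and 7.45, -1.67). For these genes WT was close to RQ. A different order was seen for Gja1, which encodes the gap junction protein connexin 43 and read 9.29 on WT, 7.25 on MI and 5.78 on RQ (-1.37), and for the fatty acid binding protein gene Fabp3 (11.80, 10.89 and 9.38, -1.85), where both variants lay below WT and RQ lay lowest. The other Fabp3 probe set above the filter differed by 0.09. The lipid droplet gene Plin2 (9.07, 9.10 and 7.95, -1.40) and the GTPase gene Rhoc (9.25, 9.28 and 8.29, -1.26) were alike in WT and MI and lower in RQ, although Rhoc was at -0.99 without the correction, just short of 2-fold.

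Imprinted genes, which are expressed from 1 parental allele, included 3 of 20 (18 above the filter) that were 2-fold lower in RQ and none that was higher, with a median of -0.14. The 3 are 15% of the list, against 0.434% of all genes. Besides Dlk1 these were the zinc finger gene Plagl1 (7.44 on WT, 8.79 on MI and 7.92 on RQ, -1.08) and the noncoding RNA gene Meg3, which lies beside Dlk1 and is expressed from the other parental allele (10.79, 9.32 and 8.52, -1.08). Dlk1 was highest in MI and Meg3 was highest in WT. Without the level correction Meg3 and Plagl1 were not past 2-fold, and the other Meg3 probe sets above the filter ranged from -1.36 to 0.04. Rian, a further noncoding RNA of the same locus, differed by -0.33, and Gnas by -0.63.

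The genes were also read in chromosomal order, as a running median over 41 neighbouring genes, to see whether differences clustered. Of 11900 windows over 12705 placed genes, 89.2% had a median within 0.1 of 0 and 35 were beyond 0.2. The lowest median, -0.24, was that of the window around Ckb, which began at Dlk1, ended at Igha and also held Meg3. In it 35 of 41 genes lay below 0, and the median was -0.08 for RQ minus WT and 0.19 for MI minus WT. Without the level correction the median of that window was -0.27. The highest median, 0.23, was that of the window around Arhgap10, with 31 of 41 genes above 0, among them Klf2 and Zfp961 past 2-fold. These medians are small beside the differences of the leading genes, and the gene order is that of GRCm38.p6.

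Lysosomal genes were divided. Of 25 genes (22 above the filter) 3 were 2-fold lower in RQ and 1 higher, with a median of -0.23. The shares are 12% lower and 4% higher, against 0.434% and 0.808% of all genes. The cysteine protease gene Ctsl read 12.18 on WT, 11.20 on MI and 10.17 on RQ (-1.38), the membrane protein gene Lamp2 read 9.50, 9.32 and 8.41 (-1.20), and the growth factor precursor Grn read 9.001, 9.37 and 8.59 (-1.07). Without the correction the list's median was -0.05 and Ctsl remained the only lower gene past 2-fold. The higher gene was Manba, which encodes beta-mannosidase and had the largest difference on that side. Manba read 6.55 on WT, 6.57 on MI and 9.88 on RQ, a corrected difference of 3.11 or 8.65-fold, at a single probe set. WT and MI were alike for Manba and RQ stood apart.

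Naive pluripotency factors leaned towards RQ. Of 20 genes on the arrays, 19 of them above the filter, 6 were at least 2-fold higher in RQ and 1 was 2-fold lower. The shares are 30% higher and 5% lower, against 0.808% and 0.434% of all genes. The median was 0.68, or 0.85 uncorrected, and 15 of the 20 lay above 0. Manba, Dppa2, L1td1 and Jam2 had been put on the list because earlier results of these arrays had shown them. Their values chose them, so nothing is read from their part of the count. Without those 4 genes 2 of 16 were past 2-fold higher and the median was 0.36, below the medians of the chromatin (0.61) and core pluripotency (0.49) lists described next.

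Nr0b1, a nuclear receptor that restrains differentiation of embryonic stem cells, read 6.20 on WT, 6.18 on MI and 8.12 on RQ, a corrected difference of 1.9995, just short of 4-fold. Klf2, a Krüppel-like factor of the naive network, read 9.31, 8.75 and 10.99 (1.90). The RNA-binding protein gene L1td1, which earlier results of these arrays had put on the list, read 7.15, 8.20 and 10.12 (1.61). RQ was the highest array for all 3 of these genes, and MI lay above WT for L1td1 and below it for Klf2.

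Members of the naive network were not alike. Prdm14, a chromatin regulator, differed by 0.99 and Zfp42, the marker also called Rex1, by 0.95 (10.04 on WT, 10.67 on MI and 11.97 on RQ), both short of 2-fold. Nanog (10.27, 11.41 and 11.94, 0.17), Esrrb (8.99, 9.18 and 9.33, -0.16) and Klf4 (8.81, 9.91 and 10.05, -0.21) were close between RQ and MI on the corrected scale. Dppa3, a maternal factor that protects DNA methylation, was the exception. It read 7.88 on WT, 9.74 on MI and 8.58 on RQ (-1.46), so that MI was the highest array.

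In the list of core and formative pluripotency genes, 4 of 20 (19 above the filter) were 2-fold higher in RQ and none was lower, with a median of 0.49 and 17 above 0. The 4 are 20% of the list, against 0.808% of all genes. Otx2, a homeobox factor of the formative state and the anterior epiblast, read 7.35 on WT, 5.98 on MI and 7.52 on RQ (1.64). Lin28a, an RNA-binding protein that blocks let-7, read 10.24, 7.44 and 8.77 (1.15), and Utf1, a chromatin factor of stem cells, read 10.53, 8.97 and 10.44 (1.14). For these genes MI was the low array and WT was near or above RQ. Sox2, the partner of Pou5f1, read 10.54, 10.32 and 11.77 (1.10), so here RQ stood above both other arrays. Pou5f1 itself read 11.39, 10.21 and 11.25 (0.68), Sall4 differed by 0.70, and the formative markers Fgf5 (0.02) and Pou3f1 (0.10) did not lie apart.

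Regulators of DNA methylation and chromatin leaned towards RQ, with 4 of 25 genes, all 25 above the filter, at least 2-fold higher and none lower. The 4 higher genes are 16% of the list, against 0.808% of all genes. The median was 0.61, or 0.84 uncorrected, and 22 of the 25 lay above 0. Tet2, a dioxygenase that oxidises methylated cytosine, read 6.97 on WT, 6.84 on MI and 8.57 on RQ (1.64), with 1.31 at its other probe set. Phc1, a subunit of Polycomb repressive complex 1, read 10.90, 9.41 and 11.19 (1.43). The Polycomb chromobox gene Cbx7 (7.66, 6.92 and 8.16) differed by 1.20, and Jarid2, which recruits Polycomb complex 2, by 1.01 (9.86, 9.69 and 11.06).

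Short of 2-fold were the related Tet1 (0.93), the methyltransferases Dnmt3a (0.92) and Dnmt3b (0.82) and their cofactor Dnmt3l (10.20 on WT, 7.52 on MI and 8.55 on RQ, 0.87). The core Polycomb genes Ezh2 (0.19) and Suz12 (-0.37) differed less. Further chromatin and transcription genes among the 147 were named after their values were seen. They included the demethylases Jmjd1c (1.53) and Kdm5b (1.04), the acetyltransferase Ep300 (1.25) and the remodeller Atrx (1.09). The corepressor Rcor2 (1.31) and the Polycomb-associated Asxl1 (1.16) were also among them. Other probe sets above the filter ranged from 0.15 to 0.78 for Atrx. They gave 0.90 and 0.17 for Asxl1 and 1.30 and 0.35 for Kdm5b. Genes of this kind past 2-fold on the lower side, named in the same way, included Hmga2 (-2.15), Scml2 (-1.47) and Yy1 (-1.16). The other probe set above the filter gave -1.63 for Scml2 and 0.25 for Yy1.

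The other genes with the largest differences towards RQ belonged to no single list. Elob, which encodes the elongin B subunit of ubiquitin ligases, read 10.58 on WT, 7.91 on MI and 10.29 on RQ (2.09), with 2.44 at its other probe set, and Twf2, an actin-binding twinfilin, read 9.25, 7.47 and 9.32 (1.62, and 1.70 at the other). For both genes MI was the low array and WT lay near RQ. Adk, which phosphorylates adenosine, read 7.58, 6.32 and 8.12 (1.83), although its other probe set above the filter gave 0.47. Ptch1, the Hedgehog receptor, read 8.50, 7.31 and 9.31 (1.79), with its other probe sets below the filter. Slc7a3, a transporter of basic amino acids, read 6.45, 6.22 and 7.93 (1.78), Fam169a 6.82, 6.84 and 8.62 (1.69), and Lrr1, a substrate receptor of a ubiquitin ligase, 6.02, 6.14 and 7.97 (1.90). RQ was the highest array for these genes.

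Further genes of no list among the 147, named after their values were seen, showed both orders of the arrays. Pml, the scaffold of nuclear bodies, read 6.93 on WT, 7.03 on MI and 8.78 on RQ (1.62), the deubiquitinase gene Usp9x read 7.88, 7.81 and 9.51 (1.44), and the zinc finger gene Zic5 read 6.54, 6.69 and 8.01 (1.34). For these genes RQ stood apart. In contrast MI was the low array for Epas1, which encodes HIF-2 alpha (7.47, 6.09 and 7.43, 1.43), for Tead2, a DNA-binding partner of YAP (8.68, 7.24 and 8.45, 1.10), and for Trim71, an RNA-binding ubiquitin ligase and let-7 target (9.09, 8.004 and 9.34, 1.07). Mybl2, a cell cycle transcription factor (9.03, 8.01 and 9.50, 1.23), and Eras, a Ras-like gene of embryonic stem cells (8.10, 7.90 and 9.27, 1.13), were highest in RQ.

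Signalling lists held few genes past 2-fold in number. The shares were 5.56% higher for FGF-ERK, 6.25% higher and 6.25% lower for Wnt targets and 9.52% higher for immediate early genes. Over all genes 0.808% were higher and 0.434% lower, and nothing is read from 1 or 2 genes of a list. In the FGF-ERK list (median 0.17, 18 genes, 15 above the filter) the ETS factor Etv5, a target of FGF signalling, was past 2-fold. It read 7.997 on WT, 7.82 on MI and 9.92 on RQ (1.82), with 2.03 and 2.001 at its other probe sets, while Spred2, a feedback inhibitor, differed by 0.80, Dusp6 by 0.40 and Etv4 by -0.20. Of Wnt targets (median 0.02, 16 genes, 10 above the filter), Ccnd1 was lower and the corepressor gene Tle4 higher (6.14, 6.12 and 8.27, 2.20), but another Tle4 probe set differed by -0.05, and the direct target Axin2 by 0.20. None of 19 BMP and Nodal targets was past 2-fold (median 0.02), with Nodal at 0.63 and Id2 at -0.84. Among immediate early genes 2 of 21 (18 above the filter) were 2-fold higher, Klf9 (8.48, 8.96 and 10.62, 1.33) and Ier2 (1.05), and the median was -0.13. Of the other Klf9 probe sets 3 gave 1.48, 1.33 and 1.29, and 3 gave 0.06, -0.08 and -0.16. Fos (-0.17), Jun (-0.54) and Junb (-0.55) lay on the other side of 0.

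Proliferation genes leaned slightly towards RQ. Of 25 DNA replication genes, each above the filter, 22 lay above 0 with a median of 0.23 (0.47 uncorrected), and 1 was past 2-fold, the polymerase subunit gene Pola1 (7.06 on WT, 6.56 on MI and 7.83 on RQ, 1.31). Pola1 is 4% of the list, against 0.808% of all genes higher, and nothing is read from 1 gene. The helicase subunit Mcm2 (0.80) and the licensing factor Cdt1 (0.79) followed Pola1, while Fen1 (-0.59) and Gins1 (-0.62) were on the other side. Of 23 mitosis genes 19 lay above 0 with a median of 0.33 (0.57 uncorrected), and none was past 2-fold on the corrected scale. Kif20a, a kinesin of cytokinesis, differed by 0.996, Plk1 by 0.74 and Bub1b by 0.73. At levels of 8 to 9 and 9 to 10 the corrected median over all probe sets was itself above 0, at 0.11 and 0.06. Of G1 cyclins and inhibitors (median -0.02, 19 genes, 18 above the filter) Ccnd1 alone was past 2-fold, and the inhibitor Cdkn1a differed by -0.36 and Cdkn1b by 0.49. Ccnd1 is 5.26% of that list, against 0.434% of all genes lower, and nothing is read from 1 gene.

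BRCA1 itself and the genes that work with it were read next. The arrays read mouse Brca1, and whether its probes also bind the human transcript is unknown, so they check no label. Brca1 read 6.81 on WT, 6.96 on MI and 6.80 on RQ (-0.07), and its 4 probe sets ranged from -0.07 to 0.54. Of 25 genes of homologous recombination and BRCA1 complexes (19 above the filter), 1 was 2-fold lower and none was higher. The lower share is 4%, against 0.434% of all genes, but it rests on 1 gene and nothing is read from it. The gene was Trp53bp1, whose product 53BP1 opposes resection of breaks (7.84, 8.26 and 7.23, -1.12). Its other probe set above the filter differed by -0.30. The helicase gene Blm differed by 0.89, Rad54l, Palb2 and Atm each by 0.54, and Bard1, the obligate partner of BRCA1, lay below the filter with -0.18. The median was 0.08. Of 23 p53 targets, each above the filter, 1 was past 2-fold, the damage-induced Gadd45a (7.55, 7.23 and 8.36, 1.03), with Zmat3 at 0.92, Ccng1 at -0.91 and a median of 0.09. Gadd45a is 4.35% of the list, against 0.808% of all genes higher, and nothing is read from 1 gene.

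Metabolic lists had corrected medians near 0. In glycolysis and hypoxia 2 of 25 genes (24 above the filter) were 2-fold higher in RQ, namely Pdk1, the kinase that restrains pyruvate dehydrogenase (8.95 on WT, 8.29 on MI and 10.25 on RQ, 1.65, with 1.44 and 0.56 at other probe sets above the filter), and Egln3, a prolyl hydroxylase of HIF (6.64, 6.63 and 7.92, 1.32). RQ was the highest array for both. The 2 genes are 8% of the list, against 0.808% of all genes. The list's median was 0.01 (0.32 uncorrected), and Ldha (-0.13), Pgk1 (-0.07) and Slc2a3 (-0.19), which respond to low oxygen, did not follow Pdk1 and Egln3. In amino acid and unfolded protein stress (21 genes, median 0.02) the mitochondrial serine enzyme gene Shmt2 was past 2-fold (8.27, 7.87 and 9.23, 1.11), while Ddit3, which encodes CHOP, lay just short of 2-fold lower (9.43, 8.83 and 8.06, -0.996). Shmt2 is 4.76% of that list, and nothing is read from 1 gene.

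Cholesterol synthesis (19 genes, median 0.11), redox and metallothionein genes (17, -0.17), ribosomal proteins (14, -0.12) and mitochondrial respiration (19, -0.00) held no gene past 2-fold. The largest differences in them were Srebf2 (0.63), Gsta4 (0.99), Rplp0 (-0.76) and Cycs (-0.59). The uncorrected medians were 0.23 for ribosomal proteins and 0.35 for mitochondrial respiration, so the sign of the first depended on the level correction. Ribosomal proteins had a median signal of 12.44 on MI and 12.59 on RQ. At levels of 11 to 16 the corrected median over all probe sets was itself -0.08.

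**Figure D3:**
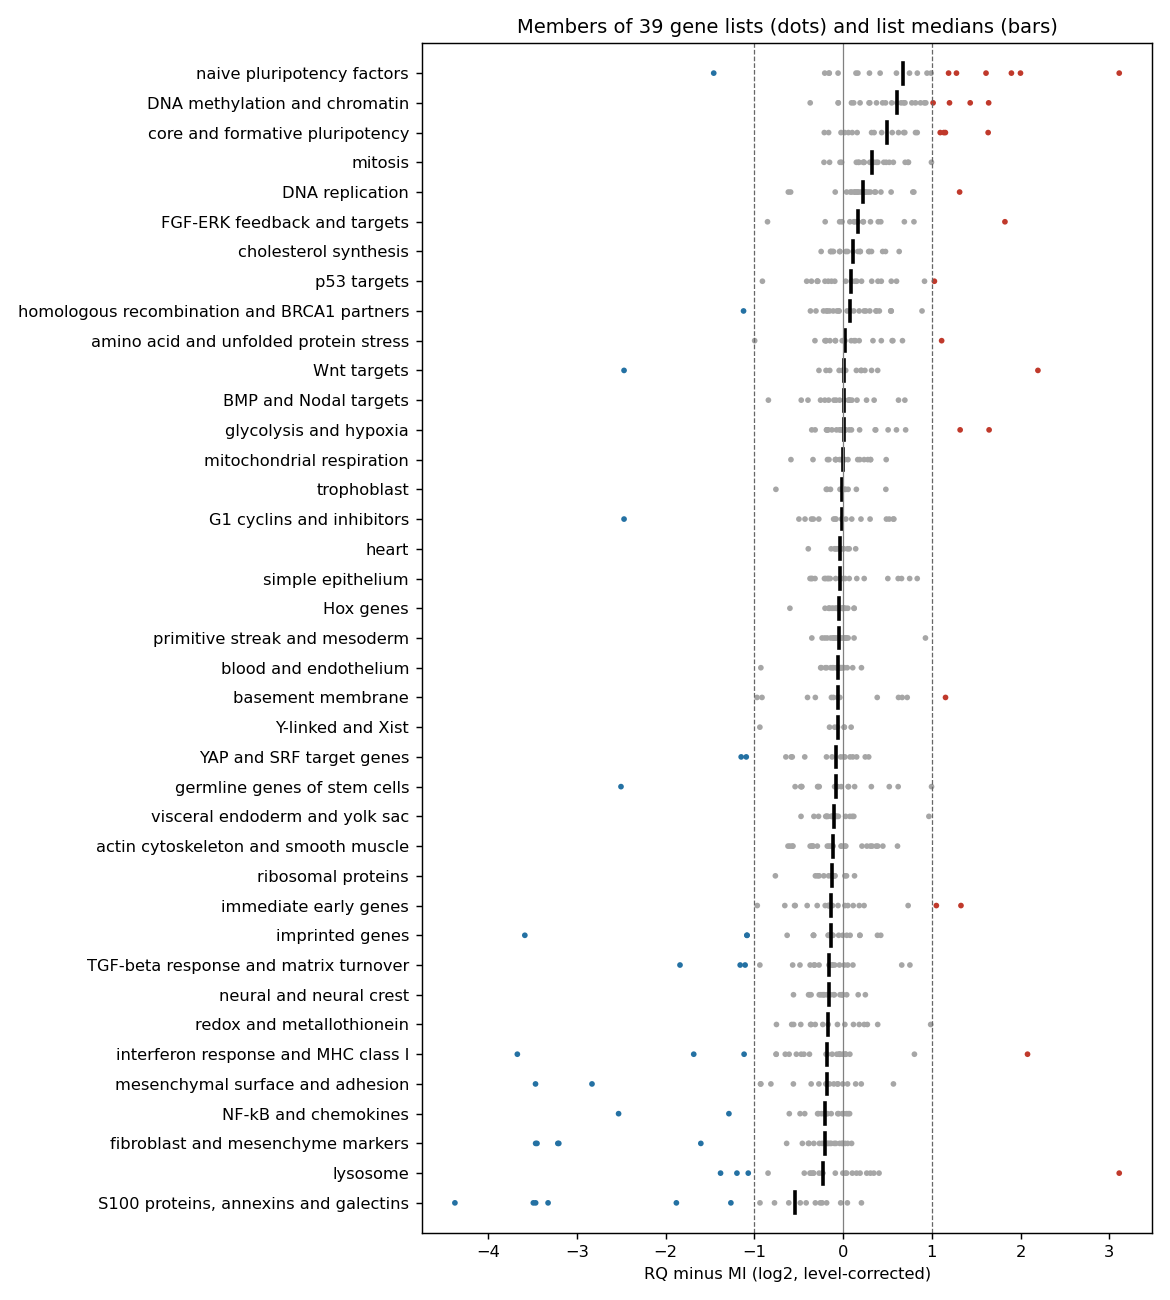
Level-corrected RQ minus MI in log2 units for the members of 39 gene lists, 1 dot per gene, with the list's median as a black bar and lists ordered by median. Members at least 2-fold higher in RQ and above the filter are red and those 2-fold lower are blue, and medians run from 0.68 for naive pluripotency factors (0.36 without the 4 genes that earlier results put there) to -0.55 for S100 proteins, annexins and galectins.

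Lists of differentiated cell types of embryoid bodies held no gene past 2-fold and above the filter. Over all genes 0.808% were higher and 0.434% lower, so lists of this size would hold few at those shares. The lists were primitive streak and mesoderm (20 genes, 14 above the filter, median -0.04), heart (13, 6 above, -0.03) and blood and endothelium (21, 10 above, -0.06). The others were neural and neural crest (20, 13 above, -0.16), trophoblast (12, 8 above, -0.01) and Hox and Cdx genes (23, 11 above, -0.04). Among members of these lists were Cd34, a surface protein of blood and endothelial precursors (-0.93 corrected and -1.02 uncorrected, so past 2-fold without the correction), Tcf15, a factor of paraxial mesoderm and of primed epiblast (6.70 on WT, 6.85 on MI and 7.75 on RQ, 0.93), Esx1 of the placenta (-0.76), Hoxa5 (-0.60) and Nes, the neural intermediate filament (-0.56). Most of these markers lay near the filter on each array. Of 7 genes in the list of Y-linked genes and Xist (median -0.06) none was past 2-fold, and Eif2s3y, at 8.56, 6.31 and 5.30 (-0.94), lay below the filter in both variants.

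The lists of extraembryonic endoderm and its matrix had medians near 0, with both arrays below WT for many of the genes, but single genes differed. None of 22 visceral endoderm and yolk sac genes (12 above the filter) was past 2-fold, with a median of -0.10. Cubn, the endocytic receptor cubilin, read 10.67 on WT, 6.08 on MI and 6.09 on RQ. It lay below the filter in both variants, so its likeness there says little. The lipoprotein gene Apoe, at 10.58, 6.94 and 7.91, differed by 0.97. Of 13 basement membrane genes (median -0.06) 1 was 2-fold higher, the linker protein gene Nid2 (9.73, 8.13 and 9.56, 1.15), while Nid1 (-0.97) and Sparc (12.37, 9.16 and 8.52, -0.91) leaned towards MI. Nid2 is 7.69% of that list, against 0.808% of all genes, and nothing is read from 1 gene. Simple epithelium genes (21, median -0.03) held none past 2-fold, with Krt8 at -0.32 and Epcam at 0.84 at the probe set used but at -0.52 at its other one. Of the germline genes expressed in stem cells (18 genes, 15 above the filter, median -0.08), Rhox5 was 2-fold lower, Stra8, induced by retinoic acid, differed by 0.997, just short of 2-fold, and Dazl differed by -0.54. Rhox5 is 5.56% of that list, against 0.434% of all genes, and nothing is read from 1 gene.

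The position of the WT signal was then read for each gene past 2-fold. The WT array itself stood apart in its controls, since all 18 spiked-in probe sets were lower on both other arrays, by a median of -0.64 for RQ (-1.38 to -0.42) and -0.80 for MI (-1.48 to -0.36). The part of this in the positions of genes was not tested. Of the 147 genes higher in RQ, WT was nearer to MI for 100 and nearer to RQ for 47. RQ was at least 2-fold from WT for 65 of them, MI for 32, both for 0 and neither for 50, on the uncorrected scale. The median was 0.95 for RQ minus WT and -0.33 for MI minus WT. Of the 79 genes lower in RQ, WT was nearer to RQ for 43 and nearer to MI for 36. MI was at least 2-fold from WT for 34 of these, RQ for 22 and neither for 23, with medians of 0.85 for MI minus WT and -0.41 for RQ minus WT. Both variants are set against the same WT array here, so an error of that array enters both. After the 3 arrays were quantile-normalized again, WT was nearer to MI for 100 of the 147 and nearer to RQ for 48 of the 79.

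Probe sets of the same gene gave a check within each array, though not of the preparation. Of the 147 higher genes 85 had another probe set above the filter, and for 68 all of those differed in the same direction, for 17 at least 1 did not, and for 11 all were past 2-fold too. Of the 79 lower genes 52 had another such probe set, and for 43 the direction was shared by all, for 9 it was not, and for 13 all were past 2-fold. The pooled standard deviation between probe sets of a gene was 0.296 log2 units. Vim, Etv5, Ccnd1, Cxcl1, Elob, Twf2, B2m and Lgals1 had all their other probe sets above the filter past 2-fold. Many other named genes did not, among them Anxa1, Adk, Tle4, Klf9, Fabp3 and Meg3. On the lower side another probe set was at -0.05 for S100a10, -0.03 for Ctsl, -0.04 for Plagl1, -0.43 for Cpe, -0.46 for Col1a2 and -0.42 for Anxa2. On the higher side another was at 0.21 for Lrr1, 0.25 for Cbx7, 0.35 for Utf1 and 0.05 for Epas1. Among list members named short of 2-fold, Cycs, Epcam, Fen1, Id2, Nes, Nid1 and Spred2 had another probe set above the filter on the other side of 0.

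**Figure D4:**
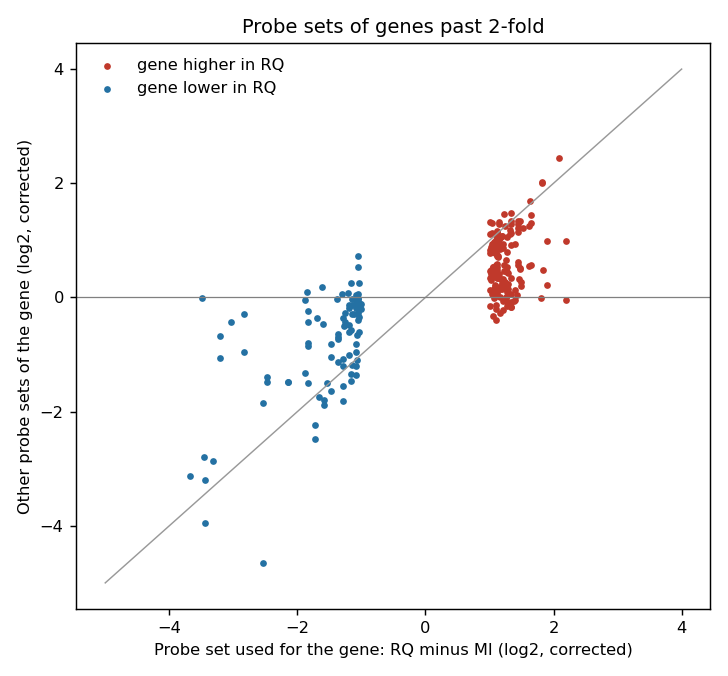
For genes past 2-fold with another probe set above the filter, the x axis gives level-corrected RQ minus MI (log2) at the probe set used for the gene and the y axis the same at each other probe set, with red for genes higher in RQ, blue for genes lower, and the diagonal for equal values. Most points lie nearer to 0 on the y axis than on the x axis, and the lowest is a Cxcl1 probe set at -4.64.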

How the data were processed

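The values are deposited log2 signals per probe set, 1 Affymetrix array for each of WT, MI and RQ, labelled from 6 ug of RNA per the labels. The submitters' processing notes name Partek and RMA, with no version or order. The array's genome build is not given in these sources, scanner files were not used here, and batches were not examined. The labels do not say whether arrays were normalized with others.

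Gene names came from the platform annotation, and Entrez identifiers of 34754 matched RefSeq (GRCm38.p6), which changed 0 symbols. RQ minus MI was corrected with a lowess trend on the mean of both arrays over 45037 probe sets (span 0.3, 3 robustness iterations, statsmodels 0.14.6). Genes were counted past 2-fold where the higher array reached the filter, over all 18193 genes. The calculation of differences was run on simulated data, which is not a check of the gene counts given here.

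The comparison, the 39 lists (833 entries, 773 on the arrays) and the rules were chosen with earlier results of these data known. Named genes are Brca1, the 15 highest and 15 lowest genes past the filter with no other probe set past it in the opposite direction, and up to 4 members per list with the largest difference. List members named beyond these, and genes of no list that are outside the leading 30, were chosen after their values were seen. With 1 array per genotype no test was run, and their number limits the precision.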

Additional observations from a re-analysis of the deposited data

Results flagged for a closer look

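A control probe set for the mouse B1 repeat, a short interspersed element present in many transcripts, was kept out of the gene comparison with the other controls and stood apart between the arrays. It read 10.35 on WT, 11.46 on MI and 9.57 on RQ, a level-corrected difference of -2.24 between RQ and MI. The 18 spiked-in controls differed by -0.44 to 0.31 on the same scale. Some other mouse controls also differed, with -0.92 and -0.47 at those labelled MUR_b2 and MURINE_B2 and 0.57 to 0.98 at those of the transferrin receptor. The 3' minus 5' difference of the Actb controls, which grows as RNA is degraded or labelling is shortened, was 0.64 on WT, 0.78 on MI and 0.52 on RQ, with 0.12, 0.05 and 0.11 for Gapdh. Whether these readings had a part in the differences of genes was not tested.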

How the results depend on the processing

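The 147 higher genes became 253 without the level correction, 348 with arrays centred on their medians, 69 with probe sets averaged per gene, 816 at a 1.5-fold limit and 19 at a 3-fold limit. The 79 lower genes became 51 with arrays centred on their medians, 44 with the mean of probe sets, 295 at 1.5-fold and 28 at 3-fold. The share of higher genes was 87.2% with arrays centred on their medians, and 52.8% (112 higher and 100 lower) with both arrays quantile-normalized again. Without probe sets that may read more than 1 transcript Dlk1 was at 0.016 in place of -3.59.

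List medians moved by more than the spread between probe sets in these settings. Without the level correction glycolysis and hypoxia was at 0.32, ribosomal proteins at 0.23 and mitochondrial respiration at 0.35. With arrays centred on their medians DNA replication was at 0.54, mitosis at 0.65, DNA methylation and chromatin at 0.91, glycolysis and hypoxia at 0.40, ribosomal proteins at 0.30 and mitochondrial respiration at 0.43. The mean in place of the median was -0.76 for fibroblast markers, -1.21 for S100 proteins, annexins and galectins and -0.51 for mesenchymal surface genes. Naive pluripotency was at 0.36 without the 4 genes taken from earlier results, a setting chosen after seeing the data, as were the promoter counts without level correction and the repeated normalization of 3 arrays. The cause of these shifts was not tested. Of 953 values of named genes under alternatives, 875 kept their direction and side of 2-fold, 40 dropped below 2-fold, 37 passed it and 1 changed sign.

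No paired analysis was possible because each genotype had 1 array, and leaving out a replicate was not possible. No detection call was used, so no probe set is called absent.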

Other observations

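Genes were also grouped by the stem of their symbols, which gave 240 families of at least 10 genes on the arrays, described after the values were seen. The family with the highest median of RQ minus MI was Exosc, the subunits of the RNA exosome, which processes and degrades RNA in the nucleus and cytoplasm. Its 10 genes had a median of 0.50 (0.57 uncorrected) and 8 lay above 0. Exosc7 read 7.52 on WT, 7.32 on MI and 8.21 on RQ (0.80), and Exosc5 read 7.67, 7.16 and 7.95 (0.75). None was past 2-fold.

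Histone lysine demethylases (Kdm, 18 genes) had a median of 0.45 (0.45 uncorrected), with 15 above 0 and 1 past 2-fold, Kdm5b (9.60 on WT, 9.45 on MI and 10.84 on RQ, 1.04), followed by Kdm3a (0.96) and Kdm4c (0.92). Nucleoporins, the subunits of the nuclear pore (Nup, 19 genes), had a median of 0.38 (0.53 uncorrected) with 17 above 0, led by Nup37 (0.83) and Nup133 (0.76). RNA polymerase subunits (Polr, 25 genes) had a median of 0.32 with 20 above 0, although Polr2a, the largest subunit of polymerase II, differed by -0.77. The lowest family was that of the kallikrein proteases (Klk, 20 genes) with a median of -0.17, in which Klk1b5 (8.34, 9.0001 and 8.67) differed by -0.61.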
